A study of Caenorhabditis elegans with 4 samples.

Results

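Chromosome IV of Caenorhabditis elegans carried 1012 regions bound by T26A5.5 that both ChIP replicates supported, of 6097 such regions in the whole genome. T26A5.5, named jhdm-1 in the WBcel235 gene table, is a JmjC-domain protein related to the mammalian KDM2 histone demethylases. Its binding was measured by ChIP-seq, that is, sequencing of DNA that an antibody to the protein recovers from crosslinked chromatin, and intervals enriched over a control are called as peaks. The series name and the design text give different antibody codes, so the antibody is not named here. The material was early embryos of the wild-type strain N2, bleached from gravid adults of a mixed population of males and hermaphrodites grown in liquid culture at 20 °C. There were 2 ChIP samples and 2 input samples of chromatin without immunoprecipitation, all of this 1 genotype, stage and temperature. Whole embryos were used, so the peaks average over all their cells, and whether the replicates were separate cultures is not stated in the labels.

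Chromosome IV is known for its piRNA genes. piRNAs are short RNAs that the Argonaute protein PRG-1 binds in the germline, where they help to silence transposons and other foreign sequence. In C. elegans most of them are encoded by very small genes, each transcribed by RNA polymerase II from its own promoter, and these are concentrated in a pair of broad clusters on IV, interspersed with ordinary genes. KDM2 proteins act on chromatin: in mammals they bind unmethylated CpG-rich DNA and remove methyl groups from lysines of histone H3.

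Each region counted here is a peak of the series-wide list on IV that overlaps, by at least 1 bp, a peak of the replicate 1 list and a peak of the replicate 2 list, and is called a supported peak. By midpoint, the chromosome was divided at fixed bounds (WS220 coordinates). The left piRNA region is IV 4500001 to 7000000 and the right piRNA region IV 13500001 to 17200000. The rest of IV is the left flank before them, the middle between them and a short right end up to 17474188, the highest peak end in any list. The supported peaks numbered 250 in the left flank, 141 in the left piRNA region, 452 in the middle, 159 in the right piRNA region and 10 at the right end. The bounds were taken as given, and the positions of piRNA genes and other genes in WS220 were not analysed here. Both ChIP samples belong to 1 group and the peaks of a list are not replicates of each other, so differences between pieces of IV are given in each list and were not tested. The lists hold no read counts, so depth and input coverage along IV are unknown, and fewer peaks cannot be told apart from fewer reads.

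T26A5.5 peaks were sparser in the piRNA regions than in the rest of IV in every list. The piRNA regions make up 35.5% of IV. They held 29.6% of the supported peaks, 25.3% of the 722 replicate 1 peaks on IV and 27.3% of the 1066 replicate 2 peaks on IV. Supported peaks numbered 48.4 per Mb in the piRNA regions and 63.2 per Mb in the rest, a ratio of 0.766. The replicate 1 list had 29.5 and 47.8 peaks per Mb, a ratio of 0.617, and the replicate 2 list had 46.9 and 68.7, a ratio of 0.683. The direction was thus shared by both ChIP samples, and the size of the gap differed between them.

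Among supported peaks and in both replicate lists, the gap was wider in the right piRNA region than in the left. In the right region there were 43.0 supported peaks per Mb, 23.5 replicate 1 peaks per Mb and 45.1 replicate 2 peaks per Mb. Relative to the rest of IV these are ratios of 0.680, 0.492 and 0.657. In the left region there were 56.4 supported, 38.4 replicate 1 and 49.6 replicate 2 peaks per Mb, ratios of 0.893, 0.803 and 0.722. The left region was thus nearer to the rest of IV in these 3 sets. Among all series-wide peaks, supported or not, the regions were alike, with 98.4 per Mb in the left and 97.8 in the right, ratios of 0.761 and 0.757, and the right was the more covered (5.47% against 5.24%). The left region's supported density of 56.4 per Mb was close to the 55.6 of the left flank, and the middle, at 69.5, was the densest piece for supported peaks. In replicate 2 the left flank was the densest, at 74.9 per Mb.

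**Figure D1:**
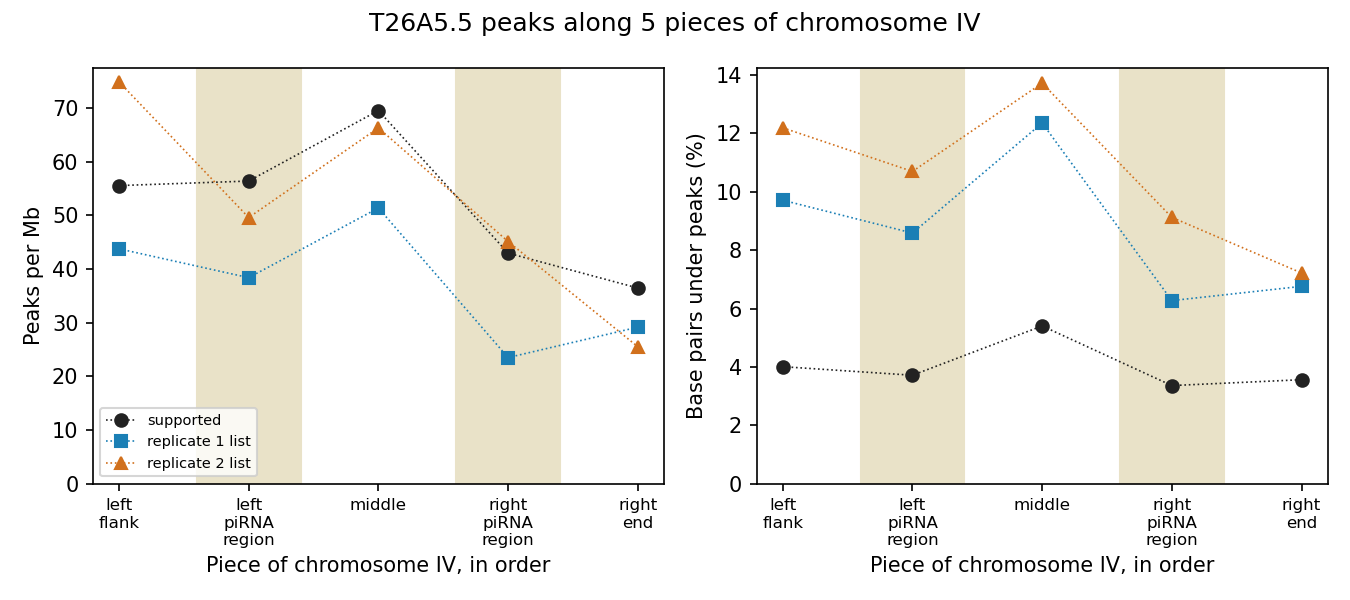
Peaks per Mb (left) and the share of base pairs under peaks (right) in the 5 pieces of chromosome IV, in order, for supported peaks (circles), the replicate 1 list (squares) and the replicate 2 list (triangles), with the piRNA regions shaded; each point is 1 list, with no error. In both panels the middle is above both piRNA regions in every list, with 69.5 supported peaks per Mb against 56.4 and 43.0.

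The share of DNA under peaks was also lower in the piRNA regions in every list. Supported peaks covered 3.51% of the piRNA regions and 4.80% of the rest of IV, a ratio of 0.730. Replicate 1 peaks covered 7.21% and 11.2%, and replicate 2 peaks 9.76% and 13.0%. The middle was the most covered piece in each list, at 5.40% for supported peaks, 12.4% for replicate 1 and 13.7% for replicate 2. The right piRNA region was at 3.36%, 6.27% and 9.12%.

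The piRNA regions lie in different parts of the chromosome, which bears on what they should be set against. The left region is between 25% and 75% of the length of IV, here called the centre, and the right region is in the right arm. Supported peaks numbered 68.6 per Mb in the rest of the centre and 56.4 per Mb in the rest of the arms. Against these, the left region had a ratio of 0.822 and the right region a ratio of 0.762. The left region was therefore sparser than the rest of the centre, and the right region sparser than the rest of the arms. The right region fills most of the right arm, so the rest of the arms lies mostly in the left arm. The right arm alone was not used as a reference. Within the right region, supported peaks numbered 63.3 per Mb up to 15000000, above the rest of the arms, and 29.1 per Mb after it. That split was chosen after the data had been seen. In the rest of the arms the replicate 1 list had 46.5 peaks per Mb and the replicate 2 list 73.7, against 23.5 and 45.1 in the right region.

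Stretches at the same relative place on the other autosomes gave a second reference. At the place of the right piRNA region, the ratio of supported density to the rest of the chromosome was 0.913 on I, 0.834 on II, 0.922 on III and 0.828 on V, against 0.680 on IV. In the replicate 1 list the ratios were 0.861 on I, 0.832 on II, 0.937 on III and 0.773 on V, against 0.492 on IV. In the replicate 2 list they were 1.04 on I, 1.11 on II, 1.11 on III and 0.908 on V, against 0.657 on IV. IV had the lowest of the 5 ratios in each list. In peaks per Mb, however, the stretch on V was at or below that of IV, and those on I, II and III were above it. V had 34.8 supported peaks per Mb against 43.0 on IV. It had 23.3 against 23.5 in replicate 1 and 43.9 against 45.1 in replicate 2. At the place of the left region IV was not the lowest among supported peaks, where its ratio of 0.893 was above the 0.850 of II and next to the 0.895 of I. There the replicate lists put the density ratio of IV lowest, at 0.803 in replicate 1 and 0.722 in replicate 2. The other 4 autosomes ran from 1.01 to 1.34 and from 0.955 to 1.33. By covered base pairs the ratio of IV was 0.769 in replicate 1, where I was next at 0.824. In replicate 2 it was 0.826, and II was next at 0.836. For supported peaks the covered ratio of I, at 0.744, was below the 0.774 of IV, and those of II, III and V were above IV. With 1 chromosome set against 4, these orders were not tested.

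**Figure D2:**
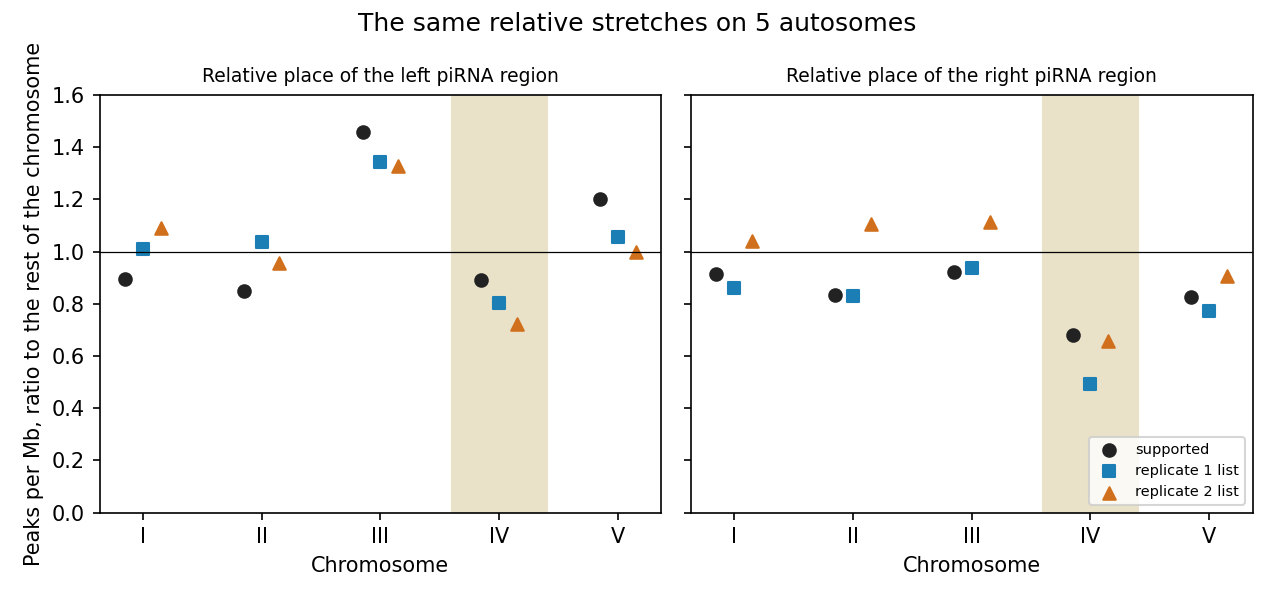
Peaks per Mb in stretches at the relative place of the left (left panel) and right (right panel) piRNA region, as a ratio to the rest of the same chromosome, on the 5 autosomes; circles are supported peaks, squares the replicate 1 list and triangles the replicate 2 list, IV is shaded, and the line marks a ratio of 1. In the right panel all 3 points of IV, at 0.680, 0.492 and 0.657, lie below those of the same list on I, II, III and V.

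Although supported peaks were sparse in the right piRNA region, those present lay close together. The median gap between neighbouring supported peaks was 601.5 bp there (interquartile range 174 to 15418 bp), against 1721.5 bp in the left piRNA region, 2486 bp in the middle and 2535 bp in the left flank. Gaps under 1000 bp made up 94 of 158 (59.5%) in the right region, 54 of 140 (38.6%) in the left region and 279 of 709 (39.4%) in the rest of IV. At the other extreme, 25 gaps of the right region were longer than 50000 bp, as were 38 of the 451 in the middle. The right region thus had a larger share of short gaps than the other pieces named. At the same relative place the median gap of supported peaks was also shorter than in the rest of the chromosome on V (1022 against 2533 bp), III (1058 against 1497 bp) and I (1563.5 against 2228 bp), and longer on II (2104 against 1466.5 bp). Replicate lists, whose peaks are wider, had longer median gaps in the right region than in the rest of IV, at 14392 against 6410.5 bp in replicate 1 and 10062 against 4333.5 bp in replicate 2.

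**Figure D3:**
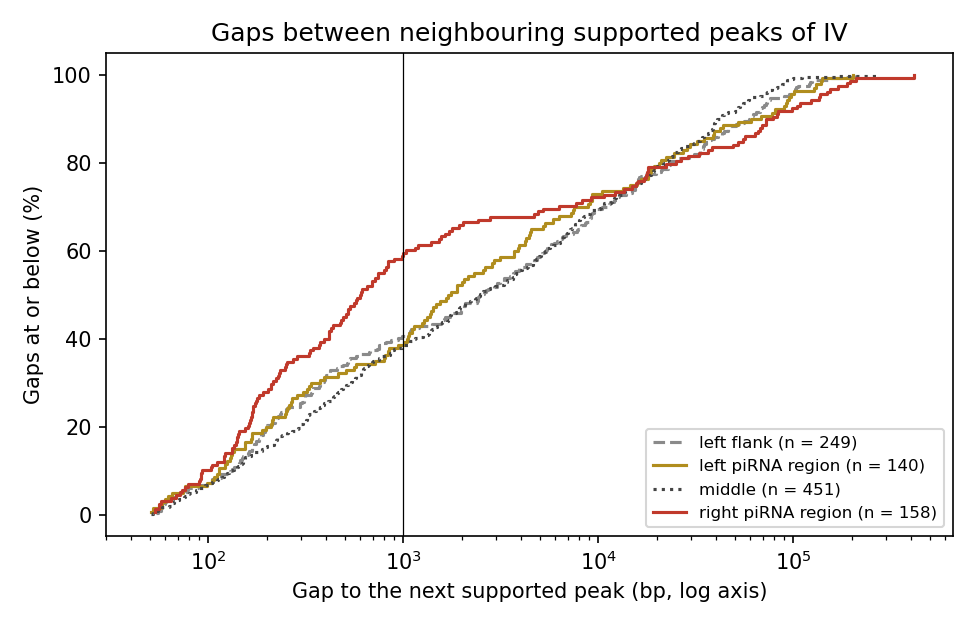
Cumulative share of gaps between neighbouring supported peaks (percent) by gap length (bp, log axis) in the left flank, the left piRNA region, the middle and the right piRNA region, with the vertical line at 1000 bp. At that line the curve of the right piRNA region stands at 59.5% and that of the left piRNA region at 38.6%, and the curves meet again at longer gaps.

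Supported peaks less than 1000 bp apart were joined into stretches. The right piRNA region held 65 such stretches (17.6 per Mb), the left piRNA region 87 (34.8 per Mb) and the rest of IV 432 (38.3 per Mb). In the right region 23 of the 65 stretches (35.4%) were single peaks, against 61 of 87 (70.1%) in the left region and 279 of 432 (64.6%) in the rest. A stretch held 2.46 supported peaks on average in the right region, 1.62 in the left and 1.65 in the rest. Counted as stretches, the right region therefore stood further below the rest of IV, at a ratio of 0.458, than counted as peaks. The same was seen in the replicate peaks behind the members. The 159 supported peaks of the right region met 67 replicate 1 peaks and 74 replicate 2 peaks, or 2.37 and 2.15 supported peaks for each, whereas the 712 of the rest met 424 and 449, or 1.68 and 1.59 for each.

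The stretch with the most supported peaks on IV was in the right piRNA region. It ran from IV 14787023 to 14799629 (12607 bp), held 14 supported peaks with a highest score of 90.37, and met a single peak in each replicate list. The next, with 9 supported peaks each, were IV 1910882 to 1918763 and IV 3518764 to 3526971 in the left flank. The right region also held IV 14089582 to 14096879, with 7 supported peaks over 7298 bp. In the left region the fullest stretch was IV 5082270 to 5087354, with 6.

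Of the 5 longest gaps between supported peaks on IV, 3 were in the piRNA regions. The longest, 417813 bp, ran from IV 15036169 to 15453981 in the right region. It was followed by IV 10422634 to 10694950 in the middle (272317 bp), IV 16170735 to 16380985 in the right region (210251 bp), IV 3807735 to 4014129 in the left flank (206395 bp) and IV 4880946 to 5082269 in the left region (201324 bp). These gaps were not empty of calls. The longest held 29 series-wide peaks without support from both replicates, 22 of them met by replicate 2 only, 3 by replicate 1 only and 4 by neither. The gap in the left region held 8, all of them met by replicate 2 only, and the second gap of the right region held 4, of which 3 were met by replicate 2 only.

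Within the right piRNA region, the first part up to 15000000 and the second part after it differed in supported peaks. This split was chosen after the counts in 0.5 Mb bins had been seen. The first part held 95 supported peaks (63.3 per Mb) and the second 64 (29.1 per Mb), against 63.2 per Mb in the rest of IV. By supported peaks, the first part was therefore as dense as the rest of IV, with a ratio of 1.00. The second part had a ratio of 0.461. Counted as stretches, both parts were below the rest of IV, with 22.7 and 14.1 per Mb against 38.3. A stretch held 2.82 supported peaks on average in the first part, against 1.65 in the rest. The replicates differed over this step between the parts. Replicate 1 had 28.7 and 20.0 peaks per Mb in the first and second part, and replicate 2 had 41.3 and 47.7. Replicate 1 peaks covered 8.60% and 4.69% of these parts, and replicate 2 peaks 9.32% and 8.99%. Both replicates were below their density in the rest of IV (47.8 and 68.7 per Mb) in each part. The series-wide list, before any demand for support, had 98.0 and 97.7 peaks per Mb in these parts and 129 per Mb in the rest of IV.

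In 0.5 Mb bins the lowest counts of supported peaks on IV were 9 each at IV 15000001 to 15500000 and IV 15500001 to 16000000, followed by 13 each in the next 2 bins. The replicate 1 list had 8, 10, 5 and 9 peaks in those 4 bins and the replicate 2 list had 18, 32, 20 and 19. Replicate 2, the longer list, had more peaks in each of them. The same held in every other 0.5 Mb bin of IV except IV 5000001 to 5500000, with 19 against 20. For supported peaks the densest bin was IV 11000001 to 11500000 in the middle, with 54 supported peaks, 29 replicate 1 peaks and 35 replicate 2 peaks. The densest was IV 13000001 to 13500000 in replicate 1 (38 peaks) and IV 1000001 to 1500000 in replicate 2 (56 peaks). In the left piRNA region the bins held 35, 42, 19, 23 and 22 supported peaks in order along the chromosome, so the low counts there were in its last 3 bins. The corresponding counts were 27, 20, 12, 16 and 21 in replicate 1 and 37, 19, 24, 19 and 25 in replicate 2.

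**Figure D4:**
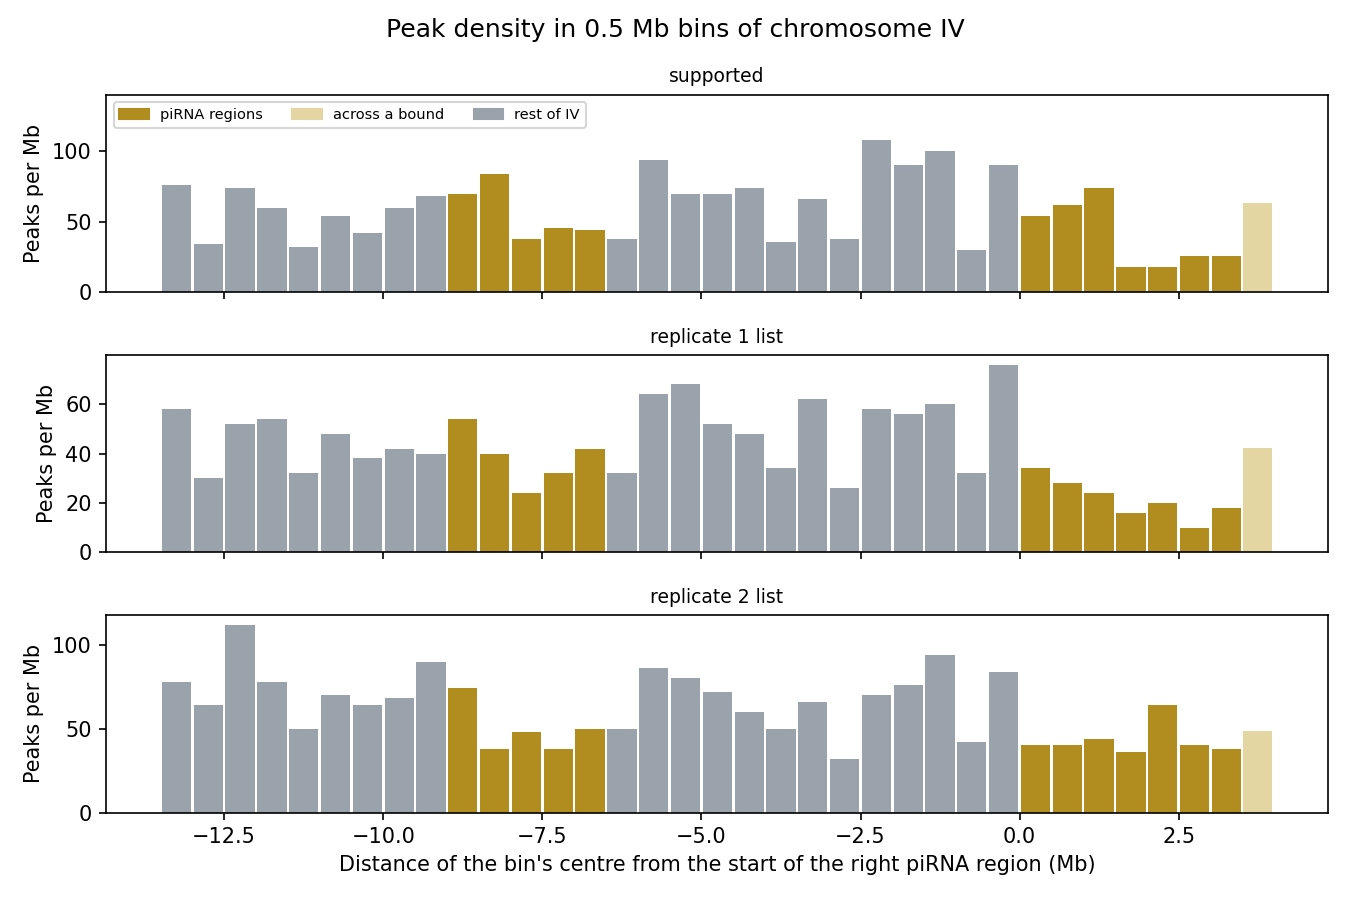
Peaks per Mb in 0.5 Mb bins of chromosome IV by the distance of the bin's centre from the start of the right piRNA region (Mb), for supported peaks (top), the replicate 1 list (middle) and the replicate 2 list (bottom); dark yellow bars are bins of the piRNA regions, grey bars the rest of IV, and the pale bar at the right is a bin that spans the end of the right piRNA region. The 4 bins with 9 to 13 supported peaks stand low in the top panel, where replicate 2 has 18 to 32 peaks.

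On IV as a whole, support by the replicates was close to that of the genome. Of the 2065 series-wide peaks on IV, 1012 were met by both replicates (49.0%, Wilson 95% interval 46.9 to 51.2), against 49.4% in the series-wide list of all chromosomes. Replicate 2 only met 22.6% on IV and 23.7% in all, replicate 1 only 13.0% and 11.9%, and neither 15.4% and 15.1%. The pieces of IV differed more than IV and the genome did. Support by both was 57.3% in the left piRNA region (51.1 to 63.3), 56.6% in the middle (53.1 to 60.0), 43.9% in the right piRNA region (38.9 to 49.1) and 39.4% in the left flank (35.6 to 43.2). The intervals of the left piRNA region and the middle overlapped, as did those of the right piRNA region and the left flank. The intervals given here and below hold only the error of counting. Peaks next to each other are not independent, so the intervals do not test whether pieces differ.

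In the right piRNA region the unsupported peaks were mostly met by replicate 2 only. These were 121 of its 362 series-wide peaks (33.4%, 28.8 to 38.4), against 19.8% in the rest of IV (17.8 to 21.9). Replicate 1 only met 31 (8.56%, 6.10 to 11.9), against 14.8% in the rest. In the second part of the region replicate 2 only met 98 of 215 peaks (45.6%, 39.1 to 52.3), more than the 64 (29.8%) that were met by both. In the first part replicate 2 only met 23 of 147 (15.6%, 10.7 to 22.4), and both met 95 (64.6%). The left piRNA region also had few peaks met by replicate 1 only, at 22 of 246 (8.94%, 5.98 to 13.2), and 23.6% met by replicate 2 only. Replicate 2 is the longer list. For each replicate 1 peak it had 1.29 peaks in the left region, 1.92 in the right region and 1.44 in the rest of IV. Within the rest, it had 1.71 in the left flank, 1.29 in the middle and 0.875 at the right end. The part of the longer list in these shares was not tested.

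**Figure D5:**
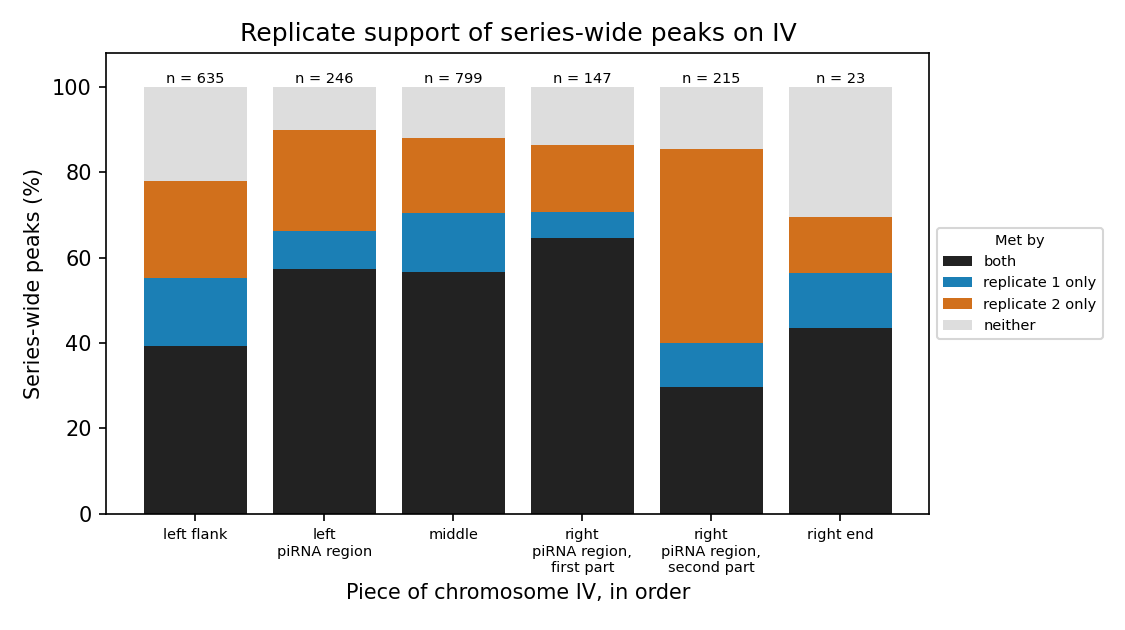
Shares of series-wide peaks (percent, stacked to 100) met by both replicates, by replicate 1 only, by replicate 2 only or by neither, in pieces of chromosome IV in order, with the right piRNA region shown in its first and second part and the number of series-wide peaks above each bar. The share met by both is 64.6% in the first part of the right region and 29.8% in the second, and the share met by replicate 2 only is 15.6% and 45.6%.

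Width separated the piRNA regions from the rest of IV little. The median width of supported peaks was 619 bp in the left region, 598 bp in the right region and 570.5 bp in the rest of IV. In the replicate lists, medians were 1644 bp in the piRNA regions and 1742 bp in the rest for replicate 1, and 1209 and 1279 bp for replicate 2, so the direction was the opposite. The right region of replicate 1 was an exception, at 1775 bp. Peaks wider than 1000 bp were 39 of 159 in the right region (24.5%), 24 of 141 in the left (17.0%) and 152 of 712 in the rest (21.3%). Only 1 supported peak of the left region was wider than 2000 bp, against 10 in the right region and 37 in the rest.

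The widest supported peak of IV was in the right piRNA region, at IV 13888263 to 13894504 (6242 bp, score 58.33), and met peaks with a score of 3100 in both replicates, 7907 bp wide in replicate 1 and 8014 bp wide in replicate 2. The next widest in that region were IV 14221972 to 14224978 (3007 bp, score 19.20) and IV 14822004 to 14824924 (2921 bp, score 82.88). In the left region the widest were IV 4753408 to 4755624 (2217 bp, score 42.17), IV 5496354 to 5498140 (1787 bp, score 20.14) and IV 6371692 to 6373437 (1746 bp, score 100.71). Width did not fix the score: of these 6 peaks, the scores ran from 19.20 to 100.71. Over all 1012 supported peaks of IV, width and score had a Spearman rho of 0.648, a description over peaks of the same libraries.

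Scores of the series-wide list did not set the piRNA regions apart in 1 direction. The score is the authors' value for a peak, of unstated unit, and ranks peaks within a list only. Its median was 26.88 in the left region (interquartile range 7.25 to 51.22), 19.20 in the right (6.85 to 54.77) and 23.4 in the rest of IV (7.32 to 45.61). The right region had both low and high scores, since 48 of its 159 supported peaks (30.2%) were in the highest 25% of IV by score and 25 (15.7%) in the 25% below that. In the replicate lists the right region had higher medians than the rest of IV, at 547.96 against 380.17 in replicate 1 and 969.72 against 356.85 in replicate 2. So did the left region, at 487.015 in replicate 1 and 705.985 in replicate 2. Within the rest, the middle had 427.395 and 497.99, and the left flank 363.85 and 262.34. The score of 3100, which is repeated in both replicate lists, was held by 15 of 87 replicate 1 peaks in the right region and 48 of 539 (8.91%) in the rest. In replicate 2 it was held by 47 of 167 (28.1%) and 102 of 775 (13.2%). Fewer replicate peaks were thus called in the right region, and a larger share of them had that score.

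Of the 15 highest-scored supported peaks of IV, 7 were in the middle, 4 in the left flank and 2 in each piRNA region, where 29.6% of all supported peaks of IV lay. The highest 25% by score held 29.7% of the supported peaks of the piRNA regions and 23.0% of those of the rest. Of all 1012 supported peaks of IV, 390 (38.5%) had a replicate 2 score of 3100 and 212 (20.9%) a replicate 1 score of 3100. Of the 15, all had that score in replicate 2 and 9 had it in replicate 1. The lowest replicate 1 score among them, 708.06, was at IV 5317083 to 5317448 in the left piRNA region, which was also the narrowest of the 15, at 366 bp, with a series-wide score of 105.19. The widest of the 15 was IV 13033687 to 13036458 in the middle, at 2772 bp, with a score of 113.02. High scores therefore came both from narrow sites and from wide ones, and 6 of the 15 were narrower than 600 bp. Over all supported peaks of IV the median replicate 1 score was 1001.09, so a score under 3100 was usual. Of the 6 narrow peaks among the 15, 5 had a replicate 1 score under 3100, and of the other 9, 1 did. Besides IV 5317083 to 5317448, IV 866841 to 867272 in the left flank (432 bp) had 867.89, IV 9140234 to 9140673 in the middle (440 bp) had 1265.78, IV 12781902 to 12782310 in the middle (409 bp) had 1379.57 and IV 9001089 to 9001516 in the middle (428 bp) had 1901.23.

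Among the 5 highest-scored supported peaks of the right piRNA region, IV 17087529 to 17089321 (score 119.28) and IV 16482349 to 16484552 (score 114.16) scored 3100 in both replicates and had a supported neighbour at 210 and 73 bp. IV 14082925 to 14084031 (score 102.93) had 3100 in replicate 1 and 2369.04 in replicate 2, and IV 17102637 to 17104538 (score 98.47) had 3100 and 2944.34. The 5 highest of the region, with IV 14863805 to 14864182 as the remaining one, had a supported neighbour at most 437 bp away. Close neighbours were usual there, since 23 of the region's 65 stretches were single peaks. The last named had a replicate 1 score of 213.59, a replicate 2 score of 3100 and a series-wide score of 101.19.

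The highest-scored supported peak of the left piRNA region, IV 5182727 to 5184230 (score 110.61), scored 3100 in both replicates and lay in a replicate 2 peak of 14198 bp but a replicate 1 peak of 1786 bp, with its nearest supported neighbour at 461 bp. The other 4 of the highest 5 had their nearest supported neighbour at 1687 to 9260 bp. Among these, IV 6371692 to 6373437 (score 100.71) scored 3100 in both replicates, whereas IV 5264766 to 5265154 (score 99.21) had 454.16 in replicate 1 and 3100 in replicate 2. IV 4664913 to 4665670 (score 100.69) had 3077.07 in replicate 1 and 1312.51 in replicate 2. Scores are not compared between the lists.

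Most supported peaks lay well inside the rule. On IV, 884 of the 1012 (87.4%) were covered over their whole width by peaks of both replicates, and 15 had under 50 bp of overlap with one of them. The nearest supported peaks to the bounds of the piRNA regions were the pair at the start of the right region, IV 13499293 to 13499959 (score 6.49) just outside and IV 13500156 to 13500833 (score 22.57) just inside, which are neighbours of 1 stretch. At its end the nearest were 34610 bp inside and 57603 bp outside. At the left region's bounds, the nearest supported peaks were 49998 bp before and 11386 bp after its start, and 21375 bp before and 16842 bp after its end.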

How the data were processed

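The submitters' processing notes name BWA and ce10 without roles. Per the file headers, peaks are in WormBase WS220 and came from MACS (replicate lists) and MACS v2 (series-wide list). Not given in the sources used here: cut-offs, control and any pooling. The deposited score of each peak has no stated unit. Replicate and series-wide lists therefore differ in caller as well as in sample, and several series-wide peaks can lie in 1 replicate peak.

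From these lists, supported peaks, densities by midpoint, covered base pairs (summed widths), gaps within a piece and stretches were computed with 1-based coordinates, using Python 3.11.15, numpy 2.4.6, pandas 2.3.3 and scipy 1.17.1. Densities and overlaps were checked on 20 simulated lists, and gaps and joining on a small made-up list. Covered base pairs had no such check. Named were the 15 highest-scored supported peaks of IV, the 5 highest-scored and 3 widest of each piRNA region, the 5 longest gaps and the extreme bins. The members, regions and lists were chosen with earlier results of these data known. A genome or annotation of WS220 was not used here, so no sequence or gene is given for a peak. The WBcel235 table supplied only the name jhdm-1. Alternatives covered the overlap, the score, each replicate list alone, joining within 1000 bp, bounds moved by 0.25 Mb and other comparison areas. In a further alternative, the demand for overlap with 1 replicate was dropped.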

Additional observations from a re-analysis of the deposited data

How the results depend on the processing

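The lower density of the piRNA regions (ratio to the rest of IV 0.766) stayed below 1 in all 10 alternatives. Here, a replicate left out means that overlap with its list was no longer demanded. The series-wide list stayed the same, so data of that replicate were not removed from it. The density ratio was 0.617 and 0.683 in the replicate 1 and replicate 2 lists, and 0.640 with neighbours joined. It was 0.710 with bounds moved inward and from 0.692 to 0.871 with a replicate left out. The left region's ratio (0.893) was 0.761 with all series-wide peaks, 0.803 and 0.722 in the replicate lists, 0.822 against the rest of the centre and from 0.792 to 0.897 with a replicate left out. The right region's (0.680) was 0.492 in the replicate 1 list, 0.458 with neighbours joined and from 0.624 to 0.853 with a replicate left out. Split after the data had been seen, it was 1.00 in its first part and 0.461 in its second. The ratio of covered base pairs (0.730) was 0.645 in the replicate 1 list and from 0.686 to 0.816 with a replicate left out. The median gap ratio (0.412) reversed to 1.77 and 1.71 in the replicate lists and 1.46 with neighbours joined, which removes short gaps by construction. It was 0.673 at or above the median score of the series-wide list, 0.707 with all series-wide peaks, 0.345 with bounds moved inward and from 0.535 to 0.615 with a replicate left out. The median width ratio (1.07) reversed to 0.944 and 0.945 in the replicate lists and ran from 0.966 to 1.07 with a replicate left out. It was 1.07 with 50% coverage, 1.02 at or above the median score, 1.00 with all series-wide peaks, 1.16 with neighbours joined, and 1.01 and 1.07 with bounds moved inward and outward. The median score ratio (0.905) reversed to 1.12 at or above the median score, 1.15 with all series-wide peaks, 1.42 and 2.35 in the replicate lists and 1.34 with neighbours joined, and ran from 0.975 to 1.09 with a replicate left out. Support by both replicates (49.0%) was 65.1% at or above the median score. The cause of these differences was not tested. No paired analysis was possible because the input samples have no values in these lists. Without depth, a peak that was missed looks the same as a site that was not bound.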

Other observations

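The piRNA regions also held high-scored series-wide peaks that replicate 1 did not support, named here after their values had been seen. In the right region the highest were IV 15048868 to 15050143 (1276 bp, score 98.71), IV 15041984 to 15042792 (809 bp, score 91.72) and IV 15677797 to 15678157 (361 bp, score 89.71). In the left region they were IV 6460491 to 6460828 (338 bp, score 79.77), IV 6117579 to 6117953 (375 bp, score 72.84) and IV 5063257 to 5063613 (357 bp, score 70.38). Their replicate 2 score was 3100 in all 6 cases, and they met no replicate 1 peak. Of all 1066 replicate 2 peaks on IV, 175 (16.4%) had that score. Counterparts from the rest of IV are not given here, so this is not shown to be particular to the piRNA regions. The first pair of the right region lies inside the longest gap between supported peaks on IV. A further gap, IV 15610319 to 15805011 (194693 bp), held 16 series-wide peaks, of which 14 were met by replicate 2 only and 2 by neither, and the replicate 2 list had 15 peaks in it where the replicate 1 list had 0.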
